A study of Homo sapiens with 2 samples.

Results

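RAB GTPases are the largest branch of the Ras-like small GTPases, and each member marks a membrane compartment or a transport step. The RAB genes described here are the 60 genes, of 18417 with a probe set of their own, whose only gene symbol on the array platform is RAB followed by digits and at most 1 capital letter, so that activating, exchange and effector proteins with RAB in their names are left out. They were picked by a rule on names, but the rule and the compartments were set with earlier results of these data known. Each gene is represented by its probe set with the highest mean intensity. By textbook location 18 were placed with the Golgi apparatus and the endoplasmic reticulum (ER), 35 with endosomes, lysosomes and secretory vesicles, and 7 elsewhere. RAB1C, 1 of the 18, is annotated as a pseudogene.

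The cells were U251, an established human glioblastoma line kept in high-glucose medium. Cells received 5 µM G-TPP for 6 h, a Gamitrinib that carries an Hsp90 inhibitor into mitochondria on a triphenylphosphonium group, or the solvent DMSO. Total RNA of each condition was read on 1 array, G-TPP on 1 and DMSO on 1. Differences are therefore given as log2 of the G-TPP intensity minus log2 of the DMSO intensity, with no test and no replicate check, and they describe this pair of arrays.

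A RAB protein switches between a form bound to GDP and a form bound to GTP. Exchange factors (GEFs) load GTP and activating proteins (GAPs) speed its hydrolysis. Geranylgeranyl lipids anchor the protein in the membrane, and GDP dissociation inhibitors carry the inactive form through the cytosol. The active form recruits effectors such as tethers, coiled-coil golgins and motors, which give each compartment its traffic. RAB1 and RAB2 act between ER and Golgi, RAB6 within and out of the Golgi, RAB5 on early endosomes, RAB7A on late endosomes, RAB11 on recycling endosomes, and RAB3 and RAB27 on regulated secretory vesicles.

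Genes of Golgi RABs gave the high values of the family, and the single clearly low value came from a secretory RAB. A gene was kept when the brighter of its arrays reached an intensity of 239.2, the median when each probe set is taken at its brighter value, which 46 of the 60 RAB genes and 11091 genes in all did. At least 1.5-fold higher with G-TPP were RAB39B, RAB39A, RAB30 and RAB33B, all 4 of them on the Golgi list. That is 4 of 46 kept RAB genes, against a background of 7.37% of all kept genes. RAB39B and RAB39A passed the filter through the G-TPP array alone, so they had to be higher there. With the filter on the mean of both arrays the count was 3. At least 1.5-fold lower was RAB3A, 1 of 46 against a background of 3.23%. At 2-fold there were 2 higher RAB genes, RAB39B and RAB39A, or RAB39B alone with dim values raised to a background floor taken from olfactory receptor genes, against 2.80% of kept genes, and 0 lower, against 0.550%. As a family the RABs thus had shares close to those of all genes, and 41 of the 46 kept members differed by less than 1.5-fold. Among the kept RAB genes 25 lay above 0 and 21 below. Their median was 0.05, and that of all kept genes was -0.04.

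**Figure D1:**
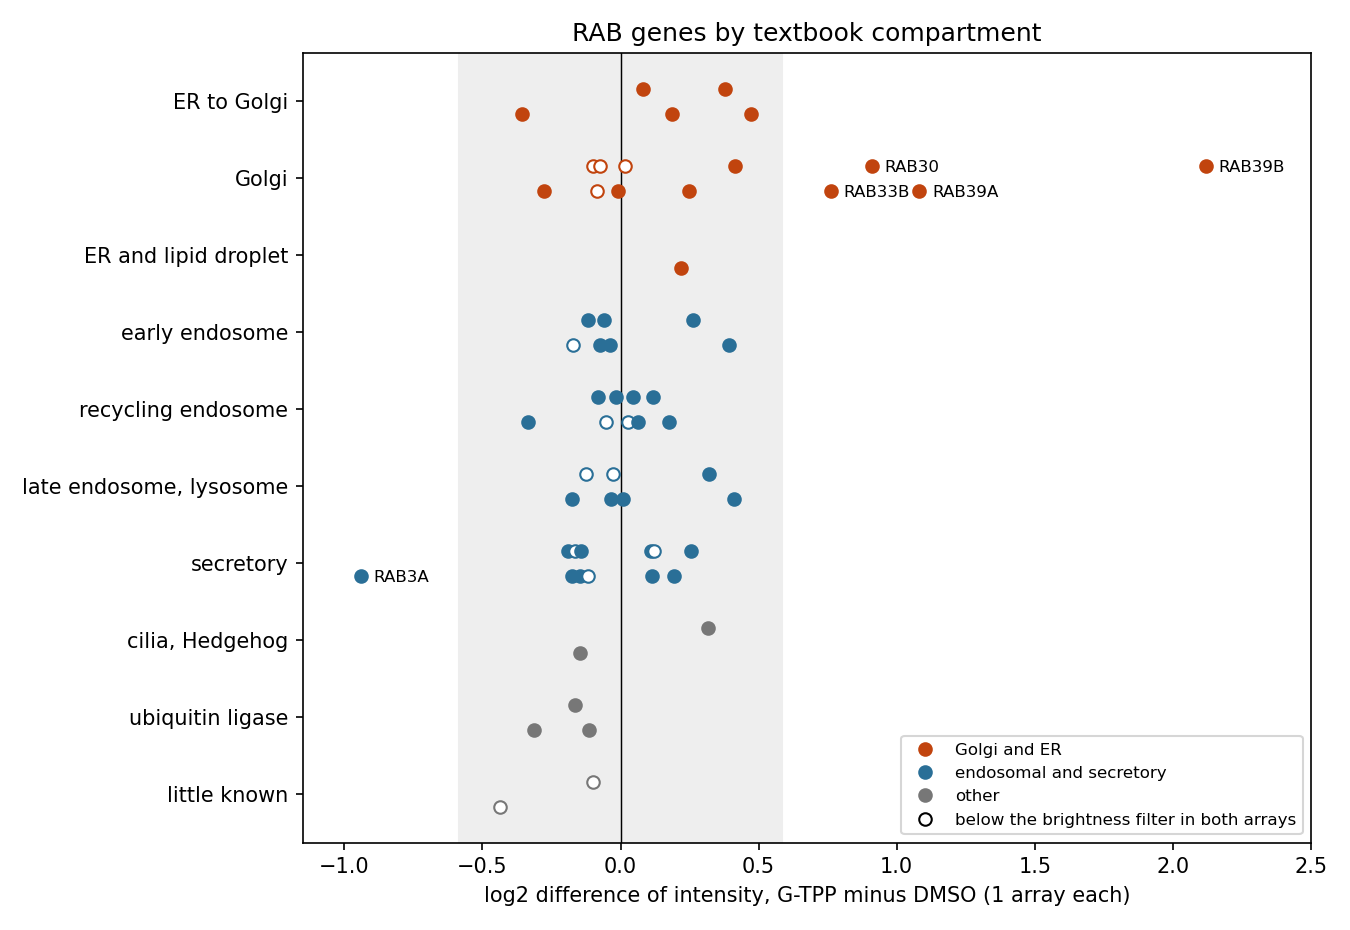
Log2 difference of intensity (G-TPP minus DMSO, horizontal) of each of the 60 RAB genes, 1 point per gene, in rows by textbook compartment; open points are the 14 genes under the brightness filter, and the grey band is less than 1.5-fold either way. RAB39B, RAB39A, RAB30 and RAB33B lie right of the band, all in the Golgi row, and RAB3A lies left of it in the secretory row.

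The array signal of U251 cells set the frame for these values. Of 14 astroglial and glioma markers 10 passed the filter, with a summed intensity over all 14 of 20188 with G-TPP and 25377 with DMSO. The mesenchymal and glioma markers VIM and CD44 were bright, at 6494 and 7614 with G-TPP and 7146 and 8013 with DMSO, while GFAP, the astrocyte filament gene, was near the filter at 231.5 with G-TPP and 245.2 with DMSO, and S100B, AQP4, ALDH1L1 and OLIG2 were under it in both arrays. The stem cell factor gene SOX2 had 1629 with G-TPP and 4434 with DMSO, and PDGFRA, a growth factor receptor gene of gliomas, had 490.1 and 1592. Of the 10 kept markers 7 were below 0 and 3 above, those above being SLC1A3 (1183 with G-TPP and 758.8 with DMSO), EGFR (514.3 and 439.2) and FABP7 (380.6 and 329.1). Among the 7, GFAP passed the filter through the DMSO array alone, so it had to be lower with G-TPP. The part of these marker differences in the RAB values was not tested. Of the marker lists of other cell types, 2 of 7 immune, 2 of 6 endothelial, 2 of 8 neuronal and 3 of 6 epithelial genes passed the filter. Of all 18417 genes, 11091 passed it. The epithelial gene KRT8 was bright, at 1809 with G-TPP and 2167 with DMSO. A guide to array noise comes from 341 olfactory receptor genes, which had an SD of 0.19 in log2 difference, and from 328 genes with a pair of kept probe sets, which scattered by 0.17 per probe set. Neither guide includes differences between cultures. In bulk RNA, fewer cells of a type and less RNA per cell cannot be told apart.

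RAB39B had the highest difference of the family. This gene encodes a Golgi-associated RAB that is best known from neurons, and its loss causes an X-linked intellectual disability with early parkinsonism. Its intensity was 688.2 with G-TPP and 158.3 with DMSO. The DMSO value was dimmer than a floor of 172.6, the intensity that 95% of the olfactory receptor genes stay under there, so the fold is given against the floor, as at least 3.99-fold higher.

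Its paralog RAB39A, described on Golgi, late endosomal and phagosomal membranes, had an intensity of 286.4 with G-TPP and 135.2 with DMSO. Against the same floor it was at least 1.66-fold higher, and the unadjusted ratio was 2.12. RAB39A and RAB39B are the 2 members that passed the filter through the G-TPP array alone, so by construction they had to be higher there. RAB39A is a 2-fold call only as long as its dim DMSO value is taken at face value, and on the floor its log2 difference was 0.73. Both genes also have homes outside the Golgi in some cell types, and their place in the Golgi group is a choice.

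RAB30 and RAB33B passed the filter in both arrays. RAB30, a Golgi RAB needed for the structure of the organelle, had 636.4 with G-TPP and 338.6 with DMSO, 1.88-fold higher. RAB33B, which acts in traffic inside the Golgi and binds ATG16L1 of the autophagy machinery, had 781.5 with G-TPP and 461.2 with DMSO, 1.69-fold higher. The close relative RAB33A was dim in both arrays, at 147.5 with G-TPP and 157.9 with DMSO. Over the 7 recalculations tried, log2 differences of RAB30 ran from 0.88 to 0.96 and those of RAB33B from 0.74 to 0.80. Those over other probe sets and on the floor could not move these genes. Each has a single probe set and values above the floor.

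Promoter windows of RefSeq genes (250 bases before to 50 after the start) are shown for the RAB genes past 1.5-fold that have one, since these members differed most in either direction. Both high members shown lie on chromosome 11 of GRCh38.p14, RAB39A at chr11:107928198-107928497 on the plus strand and RAB30, at its most upstream start, at chr11:83071848-83072147 on the minus strand, while the low member RAB3A lies at chr19:18203993-18204292 on the minus strand. Capitals mark matches on either strand to CCACG, the core of the ER stress element. Also searched on both strands were ACGTGGC, the Golgi stress element, which holds CCACG on its other strand, and CACGTG, the E-box, which may overlap ACGTGGC.
RAB39A: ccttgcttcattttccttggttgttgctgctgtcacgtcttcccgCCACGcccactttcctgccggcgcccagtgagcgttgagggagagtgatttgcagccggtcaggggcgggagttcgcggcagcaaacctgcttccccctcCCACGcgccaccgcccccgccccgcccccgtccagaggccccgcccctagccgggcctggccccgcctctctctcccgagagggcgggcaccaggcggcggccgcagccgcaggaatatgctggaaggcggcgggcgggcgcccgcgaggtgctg
RAB30: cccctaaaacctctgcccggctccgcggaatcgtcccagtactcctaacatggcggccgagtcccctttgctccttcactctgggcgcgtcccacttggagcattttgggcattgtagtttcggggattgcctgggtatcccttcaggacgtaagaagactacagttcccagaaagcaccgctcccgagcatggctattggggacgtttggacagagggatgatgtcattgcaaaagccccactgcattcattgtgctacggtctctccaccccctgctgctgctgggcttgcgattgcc
RAB3A: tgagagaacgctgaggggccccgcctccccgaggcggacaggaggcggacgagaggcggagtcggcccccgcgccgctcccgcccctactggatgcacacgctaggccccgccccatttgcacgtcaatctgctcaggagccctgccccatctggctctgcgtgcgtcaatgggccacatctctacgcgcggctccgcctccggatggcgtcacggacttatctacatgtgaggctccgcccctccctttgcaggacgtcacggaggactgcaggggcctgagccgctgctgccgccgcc
CCACG occurred 2 times in the RAB39A window and was not found in the windows of RAB30 and RAB3A, and 38.09% of all 35116 windows hold it. ACGTGGC was in none of these 3 windows and is in 3.22% of all windows. Among the other RAB genes it was found in RAB5A, RAB24 and RAB31, of which RAB5A had a log2 difference of 0.39, RAB24 of -0.03 and RAB31 of -0.07. CACGTG, in 7.26% of all windows, was in none of the 3 either. The GC content was 72% for RAB39A, 57.3% for RAB30 and 69.7% for RAB3A, and the median window had 58.7%. Windows were found for 46 of the 60 RAB genes, RAB39B and RAB33B not among them.

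The RABs of the step from ER to Golgi differed less, and paralogs did not go together. RAB1A and RAB1B, which both tether ER-derived vesicles to the early Golgi, lay on opposite sides of 0. RAB1A had 2812 with G-TPP and 2164 with DMSO, a log2 difference of 0.38, and RAB1B had 1892 with G-TPP and 2424 with DMSO, a log2 difference of -0.36. The pseudogene RAB1C had a log2 difference of 0.19, and whether its probes share signal with RAB1A or RAB1B was not tested. RAB2B, which acts in Golgi structure and autophagosome fusion, had 970.9 with G-TPP and 699.3 with DMSO, 1.39-fold higher, and its paralog RAB2A had 1585 and 1499, a log2 difference of 0.08.

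Of the other Golgi and ER RABs, 3 of the 5 that passed the filter lay above 0. RAB43, of ER to Golgi and receptor export, had 355.4 with G-TPP and 266.6 with DMSO, 1.33-fold higher. RAB6A, the main RAB of retrograde traffic through the Golgi, had 1390 with G-TPP and 1169 with DMSO, a log2 difference of 0.25. RAB18, which links ER and lipid droplets, had 1529 and 1314, a log2 difference of 0.22. RAB36 was level, at 488.3 with G-TPP and 492.0 with DMSO, and RAB29, the RAB of the trans-Golgi that binds the kinase LRRK2, had 498.7 and 603.8, a log2 difference of -0.28. Below the filter were RAB6B, RAB19, RAB33A and RAB41.

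Set side by side, Golgi and ER RABs lay above endosomal and secretory RABs. The median log2 difference was 0.20 over the 18 Golgi and ER genes, 12 of them above 0, and -0.03 over the 35 endosomal and secretory genes, 15 of them above 0. The gap between the medians was 0.24. The 4 genes past 1.5-fold higher were 4 of 18 in the first group, and the second group had 0 of 35, while 4.79% of all 18417 genes were as much higher. RAB39A and RAB39B, 2 of the 4, were placed outside both groups in a second placement. The gap was 0.17 without RAB39A and RAB39B, and 0.12 after lowess centring on brightness. Genes are not replicates of a treatment, so this gap has no test.

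**Figure D2:**
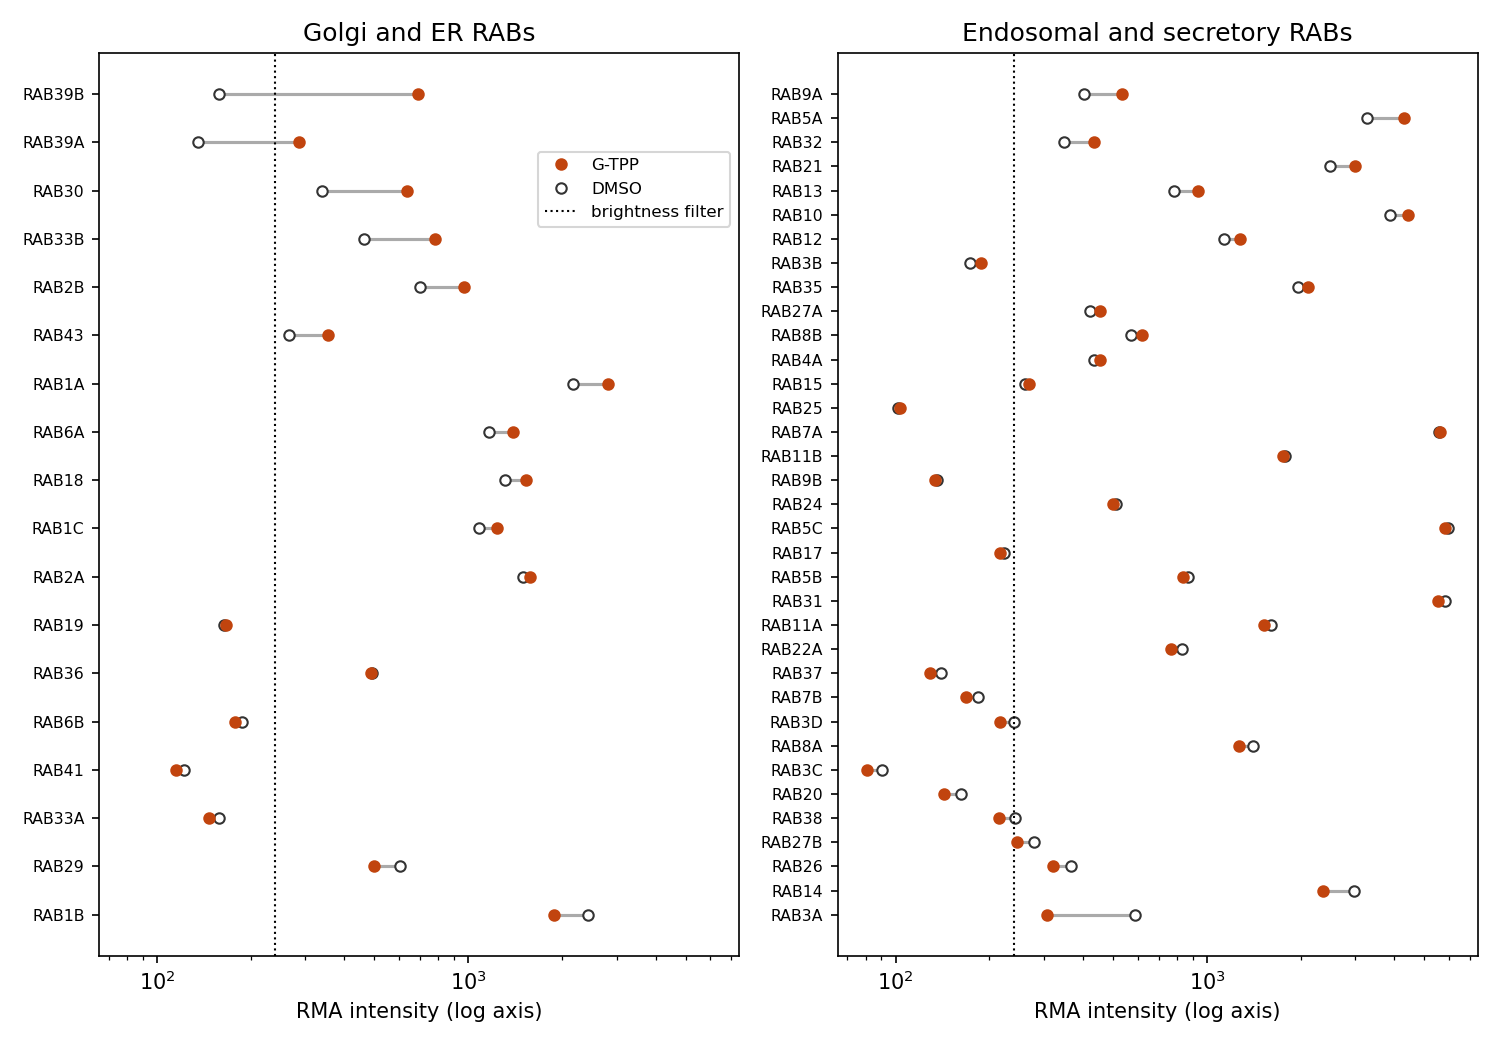
RMA intensity on a log axis with G-TPP (filled) and DMSO (open) for each Golgi and ER RAB (left) and each endosomal and secretory RAB (right), ordered by their difference; the dotted line is the brightness filter of 239.2. RAB39B and RAB39A are left of the line with DMSO and right of it with G-TPP, and most bright endosomal RABs have points that nearly coincide.

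Endosomal RABs stayed within 1.5-fold of DMSO in every case, and 18 of the 23 passed the filter. So did 41 of the 46 kept RAB genes of all compartments stay within 1.5-fold. Of all kept genes 7.37% were at least 1.5-fold higher and 3.23% lower, so a set of this size would hold few. Of the 18 kept endosomal members 9 lay above 0 and 9 below. Among the bright endosomal RABs, RAB5C, RAB7A and RAB31 were level. RAB5C had 5817 with G-TPP and 5970 with DMSO, RAB7A, which brings late endosomes to the lysosome, had 5616 and 5581, and RAB31, of the route between trans-Golgi and endosomes, had 5533 and 5823. RAB7A was level by its second probe set too, at 422.0 with G-TPP and 389.7 with DMSO.

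At the upper end of the endosomal group were RAB9A, RAB5A and RAB32. RAB9A, which returns mannose 6-phosphate receptors from late endosomes to the trans-Golgi, had 534.8 with G-TPP and 401.8 with DMSO, 1.33-fold higher. RAB5A, the RAB of early endosome fusion, had 4302 with G-TPP and 3280 with DMSO, 1.31-fold higher, while its paralogs RAB5B and RAB5C had log2 differences of -0.06 and -0.04. RAB32, of melanosomes and other lysosome-related organelles, had 432.6 with G-TPP and 346.6 with DMSO, 1.25-fold higher, and its relative RAB38 had 214.6 and 242.3. RAB38 passed the filter through the DMSO array alone, so it had to be lower with G-TPP.

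Most recycling RABs differed little. RAB11A and RAB11B had log2 differences of -0.08 and -0.02, RAB4A of 0.06 and RAB35 of 0.12, and RAB12 of 0.18. RAB14, which acts between Golgi and endosomes, had 2361 with G-TPP and 2975 with DMSO, 1.26-fold lower. RAB21, an early endosomal RAB of integrin traffic, had 2987 with G-TPP and 2493 with DMSO, a log2 difference of 0.26.

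RAB3A was the low end of the family. It is the RAB of synaptic and dense-core vesicle release, and it had 306.5 with G-TPP and 587.6 with DMSO, 1.92-fold lower, at position 76 from the bottom of all kept genes. Under all 7 recalculations RAB3A stayed between -0.94 and -0.88 on the log2 scale. Those over other probe sets and on the floor could not move it. It has a single probe set, and its values are above the floor. The 8 neuronal markers summed to an intensity of 1303 with G-TPP and 1411 with DMSO. The 2 that passed the filter were RBFOX3 (231.7 with G-TPP and 248.1 with DMSO) and GAD1 (173.9 and 243.9, a log2 difference of -0.49). Both passed it through the DMSO array alone, so they had to be lower with G-TPP. SYT1, SNAP25, STMN2, SYP, SLC17A7 and MAP2 were under the filter in both arrays, MAP2 with a log2 difference of 0.47. The part of neuronal transcripts in the RAB3A and RAB39B values was not tested.

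Other secretory RABs differed little. RAB3D, a paralog of RAB3A on exocrine granules, had 217.0 with G-TPP and 239.3 with DMSO, and RAB3B and RAB3C were under the filter. RAB26 had 319.4 with G-TPP and 364.6 with DMSO, and RAB27B, of secretory granules and exosomes, had 245.6 and 277.7, whereas RAB27A had 454.2 and 419.9. The 9 kept secretory genes had a median log2 difference of -0.14, 5 of them below 0. That median is the value of RAB3D, which passed the filter through the DMSO array alone and so had to be lower with G-TPP. RAB10 and RAB8A, which bring carriers to the plasma membrane, had log2 differences of 0.19 and -0.15. RAB13, of tight junctions and migrating cells, had 938.7 with G-TPP and 785.8 with DMSO on its brighter probe set, a log2 difference of 0.26. The other probe set had 838.3 with G-TPP and 864.8 with DMSO, or -0.04, so the sign depends on the probe set.

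Outside the main compartments, RAB28, a RAB of cilia and photoreceptors, had 552.2 with G-TPP and 443.2 with DMSO, 1.25-fold higher. RAB23, a negative regulator of Hedgehog signalling, had 744.2 with G-TPP and 824.3 with DMSO, a log2 difference of -0.15. The 3 RAB40 genes, whose proteins carry a SOCS box and join cullin ubiquitin ligases, were all below 0, with log2 differences of -0.17 for RAB40A, -0.31 for RAB40B and -0.11 for RAB40C. The 14 RAB genes below the filter, among them RAB42, RAB44 and RAB25, had log2 differences from -0.44 to 0.12. At that brightness a difference in expression was not detectable with any confidence.

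Some paralogs of the same RAB number differed from each other. In 9 such families at least 2 members passed the filter, 20 genes in all, RAB1C left aside. In 4 of the 9 the members lay on both sides of 0, namely RAB1, RAB5, RAB8 and RAB27, although in RAB8 and RAB27 each member was closer to 0 than the olfactory receptors' SD of 0.19. In 3 the spread between the highest and the lowest member was 0.5 or more in log2 difference, namely RAB39, RAB3 (0.80) and RAB1 (0.74). The RAB39 spread was 1.04 as measured and 1.26 with the DMSO values, both under the floor, set to it. RAB11 was the tightest, with a spread of 0.06.

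**Figure D3:**
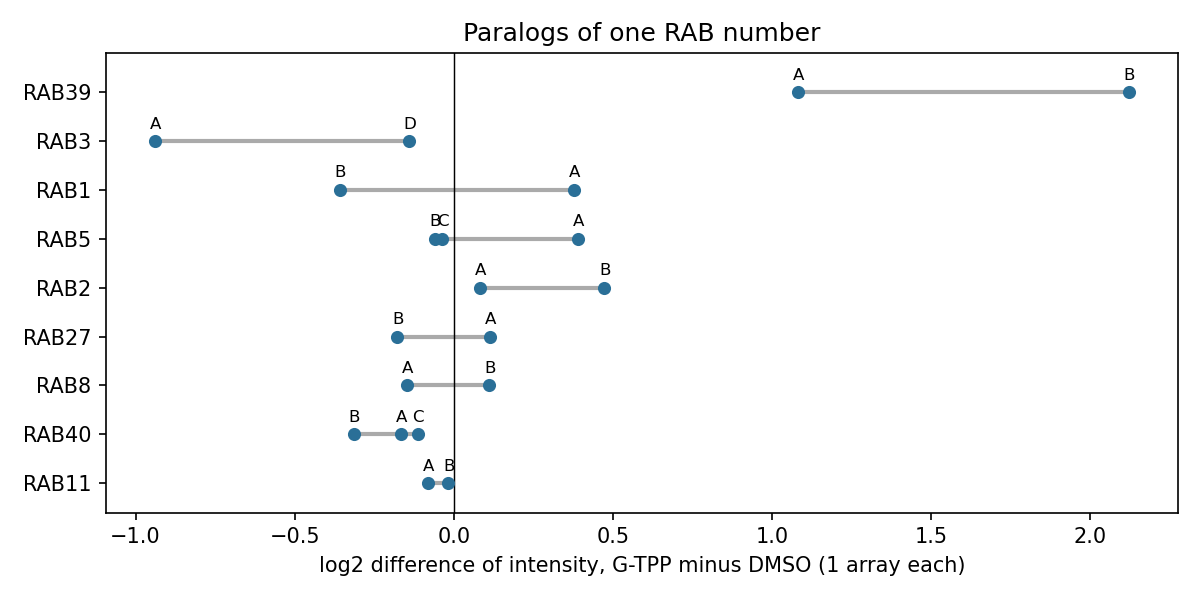
Log2 difference of intensity (G-TPP minus DMSO, horizontal) for kept paralogs of each RAB number, 1 point per gene marked with its letter, joined by a line, with the widest spread at the top. RAB39A and RAB39B lie far right, RAB3A lies far left of RAB3D, and RAB1A and RAB1B lie on opposite sides of 0.

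Many partners of Golgi RABs were higher with G-TPP. In a list of golgins, tethers and other proteins of the ER and Golgi, 18 of 21 kept genes were above 0, with a median log2 difference of 0.43, against -0.04 over all kept genes. At least 1.5-fold higher were 7 of the 21 (33.33%, against 7.37% of kept genes). At least 2-fold higher were 3, against 2.80% of kept genes, and none was at least 1.5-fold lower, against 3.23%. The list includes GIGYF1, not an established Golgi protein, at 1.26-fold lower. This list and those below were drawn up with earlier results of these data known, so their shares are not independent of the values. GOLGB1, which encodes the large golgin giantin, had 1059 with G-TPP and 368.2 with DMSO, 2.88-fold higher. MIA2, which encodes a cargo receptor subunit at ER exit sites, had 468.0 with G-TPP and 185.7 with DMSO, 2.52-fold higher. With DMSO it was under the filter, so MIA2, 1 of the 7 and 1 of the 3, was kept through the G-TPP array alone and had to be higher there. TMF1, a golgin that binds RAB6, had 723.3 with G-TPP and 333.9 with DMSO, 2.17-fold higher.

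Effectors of the other compartments were nearer to level. Of 30 kept endosomal effectors none was 1.5-fold higher and 1 was 1.5-fold lower, against 7.37% and 3.23% of all kept genes, with a median log2 difference of 0.00. The low one was RILPL1, a partner of RAB8 and RAB10 in ciliary traffic, at 256.5 with G-TPP and 389.7 with DMSO. ZFYVE16, the endosomal protein endofin, was 1.44-fold higher, and MICALL2, an effector of RAB13, was 1.35-fold lower. Secretory effectors had a median of 0.18 over 14 kept genes, 2 of them at least 1.5-fold higher and none as much lower, beside the same background shares. Both were subunits of the exocyst, the tether of the plasma membrane, EXOC8 with 521.7 in the G-TPP array and 314.8 in the DMSO array, and EXOC6B with 1038 and 676.7. EXOC4 was 1.32-fold higher.

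**Figure D4:**
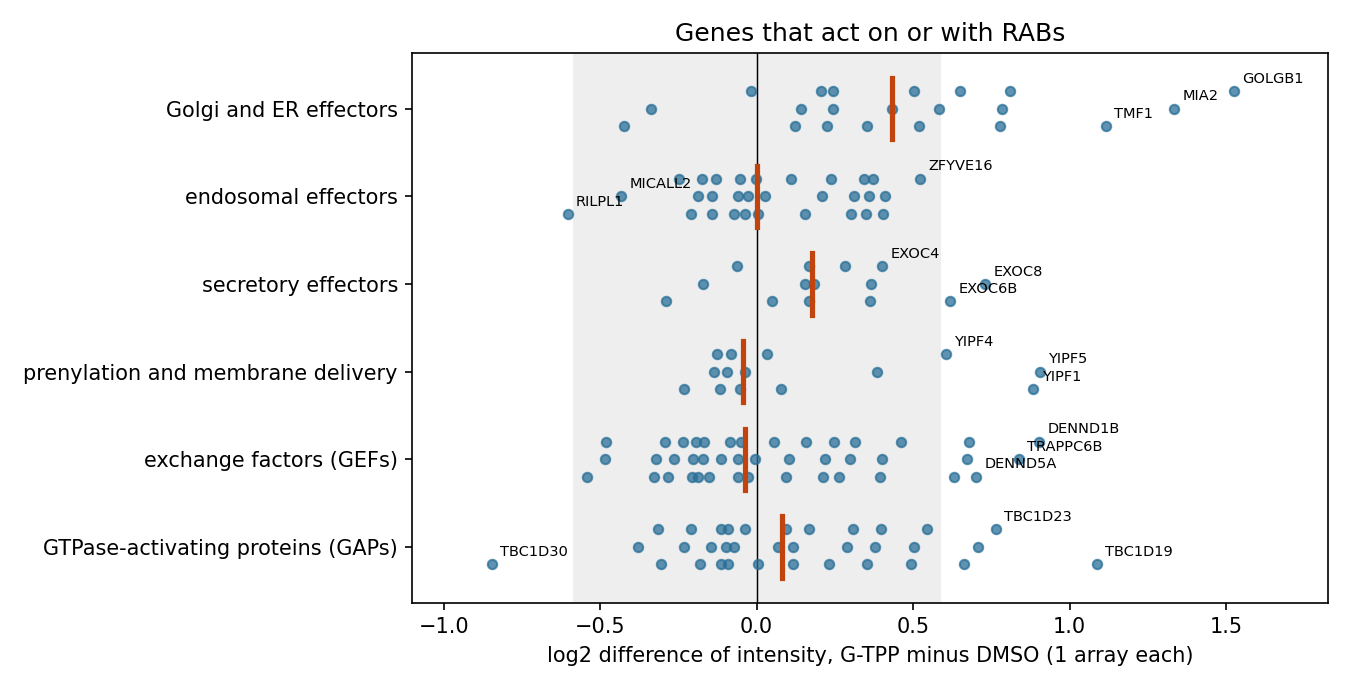
Log2 difference of intensity (G-TPP minus DMSO, horizontal) of kept genes in 6 lists of RAB partners and regulators, 1 point per gene, with the list's median as a vertical bar, the grey band for less than 1.5-fold and the 3 largest differences named. The Golgi and ER list has its median at 0.43, and the other 5 medians lie between -0.04 and 0.18.

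The lipid anchoring and carrier machinery was level apart from a few YIP family genes. RABGGTA and RABGGTB, the subunits of the enzyme that attaches the geranylgeranyl anchor, had log2 differences of -0.05 and 0.08, and the dissociation inhibitor gene GDI2 and the escort protein gene CHML of -0.08 and -0.23. YIPF5, YIPF1 and YIPF4, which encode membrane proteins of the Golgi and ER exit sites that bind RABs, were the 3 of 14 kept genes at least 1.5-fold higher, against 7.37% of all kept genes. YIPF5 had 1626 with G-TPP and 868.2 with DMSO (1.87-fold), YIPF1 had 613.1 and 332.2 (1.85-fold), and YIPF4 had 831.0 and 546.4 (1.52-fold). The list's median was -0.04, and none was 1.5-fold lower, against 3.23% of all kept genes.

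Among exchange factors 6 of 42 kept genes were at least 1.5-fold higher and none as much lower, against 7.37% and 3.23% of all kept genes, with a median of -0.04. Of the 6, DENND1B, TRAPPC2 and C9orf72 passed the filter through the G-TPP array alone, so these 3 had to be higher there. DENND1B, a GEF of RAB35, was 1.87-fold higher, at 325.3 with G-TPP and 174.1 with DMSO, the DMSO value being just above the floor. TRAPPC6B, a subunit of the TRAPP complexes that activate RAB1, had 1199 with G-TPP and 670.6 with DMSO, 1.79-fold higher. DENND5A, which acts on RAB39 in exchange assays, had 1387 with G-TPP and 853.2 with DMSO, 1.63-fold higher. TRAPPC subunits did not go together: TRAPPC1, picked out after its value was seen, had 2138 with G-TPP and 3115 with DMSO, 1.46-fold lower.

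Among GAPs 4 of 34 kept genes were at least 1.5-fold higher and 1 as much lower, against 7.37% and 3.23% of all kept genes, with a median log2 difference of 0.08. TBC1D19, the 1 gene of the list past 2-fold, against 2.80% of all kept genes, had 412.7 with G-TPP and 194.4 with DMSO, 2.12-fold higher. It passed the filter through the G-TPP array alone, as TBC1D30 did through the DMSO array alone, so the direction of both follows from the filter. TBC1D23, which tethers endosomal carriers at the trans-Golgi, had 1705 and 1003, 1.70-fold higher. TBC1D30 had 206.8 with G-TPP and 371.8 with DMSO, 1.80-fold lower. The other 2 high genes, named after their values were seen, encode the subunits of the complex that is a GAP for RAB3 and a GEF for RAB18. RAB3GAP1 had 1395 with G-TPP and 854.7 with DMSO (1.63-fold), and RAB3GAP2 had 1139 and 719.6 (1.58-fold).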

How the data were processed

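Total RNA of U251 cells was measured on 1 Affymetrix array for G-TPP and 1 for DMSO, assigned by the labelled agent. Deposited values are linear-scale intensity, 1 per probe set. Expression Console 1.1.2 with RMA is named in the submitters' processing notes. RMA makes arrays alike, so a change in total RNA per cell is not visible. How values came to a linear scale is not given in the sources used here. Precision is limited by the number of arrays.

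Of 33297 probe sets, 19460 had 1 symbol in the platform annotation, with symbols updated through the RefSeq gene table of GRCh38.p14. Log2 was taken of the deposited intensity with no pseudocount. Kept genes reached the median of probe sets taken at their brighter value (log2 7.90). With 1 array per group there is no test: genes were counted at 1.5-fold and 2-fold. Where the dimmer value fell below a floor set at the 95th percentile of olfactory receptor genes (172.6 with DMSO, 173.6 with G-TPP), the fold is a lower bound, a rule taken up after the data were seen. The members, the compartments and the gene lists were chosen with earlier results of these data known, and the 3 motifs after the values were seen. Named were every kept RAB gene past 1.5-fold, and the 3 highest and 3 lowest of each compartment group. Members whose probe sets disagree in sign were named too, and up to 3 genes per list with the largest absolute difference. Other members, and list genes said to be picked after their values were seen, are given to describe more of the family. Not every member is named. The counting code was tested on simulated data. Alternatives were other filters, centring, quantile normalization, other probe sets, a pseudocount of 16 and second compartments. The work used matplotlib 3.10.9, statsmodels 0.14.6, pandas 2.3.3, numpy 2.4.6 and Python 3.11.15. Probe sets with several symbols were left out of the members. One further gene list is not reported here.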

Additional observations from a re-analysis of the deposited data

Results flagged for a closer look

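Probe sets with several symbols lie outside the RAB genes counted above, and 1 of the 5 that name a RAB was past 1.5-fold higher with G-TPP. Probe set 8001147, listed for RAB43 and the readthrough gene ISY1-RAB43, had an intensity of 530.1 with G-TPP and 351.6 with DMSO, 1.51-fold higher (1.507 before rounding), against 1.33-fold for the probe set of RAB43 alone. Both probe sets of RAB43 were thus above 0.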

How the results depend on the processing

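No paired analysis was possible because each condition has 1 array, and for the same reason no replicate could be left out. The gap between Golgi and ER RABs and endosomal and secretory RABs was above 0 under every alternative tried, from 0.12 with lowess centring to 0.35 with means in place of medians. It was 0.22 with second compartments, 0.19 after quantile normalization and 0.16 without the 4 genes that pass the filter in 1 array only; this setting, and those without RAB39A and RAB39B (0.17), without RAB1C (0.25) and over kept genes (0.33), were chosen after seeing the data. The count of RAB genes at least 1.5-fold higher was 2, and of those 1.5-fold lower 0, with the filter at the 75th percentile, where 25 RAB genes were kept. The count at least 2-fold higher was 1 with that filter, with the filter on the mean of both arrays, with 16 added to each intensity, and with intensities under the floor set to it, the last chosen after seeing the data. Of 133 recalculated differences of the 19 RAB genes picked by the naming rule, 130 moved by less than the scatter between probe sets (0.17). Many of the 133 could not move, because of the 19 only RAB13 has a second probe set. Only RAB39A and RAB39B among them had a value under the floor. RAB13 and RAB36 changed sign. Other RAB genes were not followed in this way. Low signal over background limits RAB39A, RAB39B and the 14 genes below the filter.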

Other observations

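The RAS family, another branch of small GTPases, had 1 gene past 1.5-fold higher among 21 kept (4.76%), against 7.37% of all kept genes. That gene, RIT1, a RAS relative that signals to MAP kinases, had 890.5 with G-TPP and 429.8 with DMSO, 2.07-fold higher. NKIRAS2 and RRAS2 were 1.41-fold and 1.29-fold higher, and the list had a median of 0.11.

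The ARF, ARL and SAR1 genes, which control coat assembly in the same pathways as the Golgi RABs, had 9 kept genes. Their median log2 difference was 0.20. None reached 1.5-fold, against 7.37% of all kept genes higher and 3.23% lower. ARF6 was 1.26-fold and SAR1B, the GTPase of the COPII coat, 1.20-fold higher, and ARF3 was 1.23-fold lower. Of the RAB-like genes 5 were kept with a median of -0.05, RABL6 being 1.28-fold lower.

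The remaining RABs with shared probe sets had no difference past 1.5-fold. The probe set of RAB34 and NARR had 1046 with G-TPP and 1410 with DMSO, that of RAB4B and its readthrough genes had 294.8 and 323.0, and the 2 probe sets common to RAB6A, RAB6C and RAB6D had 1667 and 2085 with G-TPP and 1526 and 1811 with DMSO.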
